A study of Mus musculus with 8 samples.

Results

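The data describe 10 genes of lipid synthesis and storage, Pparg, Acly, Acaca, Fasn, Elovl5, Elovl6, Scd1, Scd2, Plin2 and Cidea, in sorted stem cells of mouse skin. The genes were picked by symbol and were selected on values of these same libraries, among them the difference between genotypes, so that difference is given below as a description without a test. The table of hair follicle stem cells (HFSCs) held all 10 among its 23861 genes. The table of epidermal stem cells (EpdSCs) held 8 among 16231, and Cidea and Pparg had no row there.

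In the sebaceous gland, basal progenitors turn into sebocytes that fill with lipid and burst to release sebum. Citrate leaving the mitochondria is split into acetyl-CoA, which is carboxylated and joined into palmitate, and the chain is then lengthened, desaturated and built into wax esters and triglycerides that are held in lipid droplets. The nuclear receptor PPARγ drives this programme in sebocytes and in adipocytes, and loss of SCD1 in mice shrinks the sebaceous glands.

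Bulk RNA-seq was made from dorsal skin in telogen, the resting phase of the hair cycle. HFSCs were sorted as CD34+CD49f+Sca-1- cells and EpdSCs as CD34-CD49f+Sca-1+ cells. WT mice were C57BL/6J controls matched by hair cycle, and Msx2-KO mice were homozygous for a germline allele with a pMC1-neo cassette placed ahead of exon 2. The names of the deposited tables abbreviate the knockout as cKO, while the genotype labels give a knockout and the study's methods a germline allele, and this difference could not be settled here. Each of the 4 groups had 2 libraries. HFSCs came from WT mice aged 2 months and Msx2-KO mice aged 6 months, so age and genotype cannot be told apart in HFSCs. All EpdSC mice were 6 months old. The labels number the libraries but do not say whether a library is 1 animal or a pool, so an error over 2 libraries covers only the spread between these samples. The library names also fall into separate number series for the genotypes of each cell type, and what the numbers record cannot be told apart from genotype. The names of the Msx2-KO HFSC and the WT EpdSC libraries run on from each other, while those of WT HFSCs and Msx2-KO EpdSCs stand apart.

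HFSC libraries held 3132974 to 11016659 estimated counts, with the mitochondrial ribosomal RNAs at 8.94% and 36.3% of the total in WT against 49.4% and 53.2% in Msx2-KO. The part of these shares in the results below was not tested. Genes with a count numbered 22447 and 19595 in WT against 11409 and 14251 in Msx2-KO. Msx2, the targeted gene, was counted over the whole gene and did not fall, with 53 and 7 counts in WT HFSCs and 40 and 18 in Msx2-KO HFSCs, and with values of 58.5 and 85.4 in WT EpdSCs against 150 and 22.2 in Msx2-KO EpdSCs. By in situ hybridization, the study reports Msx2 RNA as absent in Msx2-KO skin, and this difference could not be settled here. Counts over a whole gene do not show the cassette, and the libraries are therefore named by their labels below. The EpdSC table had no row for Cd34 and the HFSC table none for Ly6a, which encodes Sca-1. A missing row was not shown to mean an absent transcript, so it does not check the sort. The summed HFSC markers (Cd34, Krt15, Lhx2, Sox9, Lgr5, Nfatc1, Itga6) were at 36112 and 34575 normalized counts in WT HFSCs and at 19105 and 20274 in those labelled Msx2-KO. Krt15 made up most of each sum, at 26371 and 24945 in WT against 12441 and 15523 in Msx2-KO. The ratio of means, Msx2-KO over WT, ran from 0.346 for Cd34 to 0.747 for Lhx2.

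RefSeq promoters of GRCm38.p6 were at hand for 7 of the 10 genes, with 3 start sites for Pparg and 9 promoters in all. Scd1, Scd2 and Cidea had no entry. The stretches before Elovl6 and Plin2 are shown because these genes, after Scd1, had the widest genotype differences in HFSCs among members with at least 10 counts in every library, and that of Fasn because Fasn lay on opposite sides of WT in the 2 cell types. They run 5′ to 3′ on the gene's strand, at chr3:129532136-129532379 for Elovl6 (plus strand), chr4:86670036-86670309 for Plin2 (minus) and chr11:120824523-120824797 for Fasn (minus). Capitals mark, on either strand, matches to 4 short motifs. These are the E-box with the letters CACGTG, the pentamer known as the CCAAT box, the box of Sp factors with the letters GGGCGG, and the core site of nuclear receptors with the letters AGGTCA.
Elovl6: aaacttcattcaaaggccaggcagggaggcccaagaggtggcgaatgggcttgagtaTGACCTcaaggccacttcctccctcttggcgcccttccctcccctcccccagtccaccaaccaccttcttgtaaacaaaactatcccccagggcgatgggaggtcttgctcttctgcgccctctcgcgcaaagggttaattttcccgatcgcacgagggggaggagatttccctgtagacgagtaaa
Plin2: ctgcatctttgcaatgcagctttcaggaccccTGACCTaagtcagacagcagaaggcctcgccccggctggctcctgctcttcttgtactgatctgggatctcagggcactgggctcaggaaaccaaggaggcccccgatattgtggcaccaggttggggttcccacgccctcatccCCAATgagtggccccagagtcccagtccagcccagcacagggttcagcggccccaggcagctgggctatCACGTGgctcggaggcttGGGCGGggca
Fasn: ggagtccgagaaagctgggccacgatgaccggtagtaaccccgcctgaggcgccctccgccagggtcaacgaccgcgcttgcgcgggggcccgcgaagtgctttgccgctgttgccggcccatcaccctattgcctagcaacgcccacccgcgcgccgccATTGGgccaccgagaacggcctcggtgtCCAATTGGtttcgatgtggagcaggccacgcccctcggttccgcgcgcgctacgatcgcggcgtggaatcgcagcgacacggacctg

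Motifs were sought on both strands of the full window, 250 bases before and 50 from the start site. The core site AGGTCA was in 5 of the 9 promoters and in 16.3% of all 32851 RefSeq promoters of that length. In Elovl6 it began at position -193 and in Plin2 at -218, both on the opposite strand. The E-box was in 2 promoters, Plin2 at -4 and Elovl5 at -161, and in 7.15% of all. CCAAT was in 6 and in 37.4% of all, with 3 matches before Fasn of which those on opposite strands at -62 and -59 overlap. GGGCGG was in 4 and in 35.7% of all. None of the 9 held the direct repeat of the core site spaced by 1 base, a perfect PPAR response element, which contains the core site and was in 0.0396% of all promoters. None held TCACNCCAC, a form of the sterol element (1.24% of all), or CAATTA, a site that Msx homeodomains bind in vitro (8.0% of all). These are letter matches only.

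On the TMM scale, 9 of the 10 genes in HFSCs had each Msx2-KO library above each WT library, and Elovl5 had each below. Among all 14422 genes tested, 17.5% were higher without overlap of the groups and 33.5% lower, and since the genes were chosen with these values known nothing is read from their share. Summed over the 10 genes, normalized counts (scaled by TMM to the median library total) were 994 and 1211 in WT against 10611 and 9197 in the libraries labelled Msx2-KO. Fitted log2 fold changes, Msx2-KO minus WT, had a median of 2.51 over the 10 genes and of -0.14 over all genes tested.

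**Figure D1:**
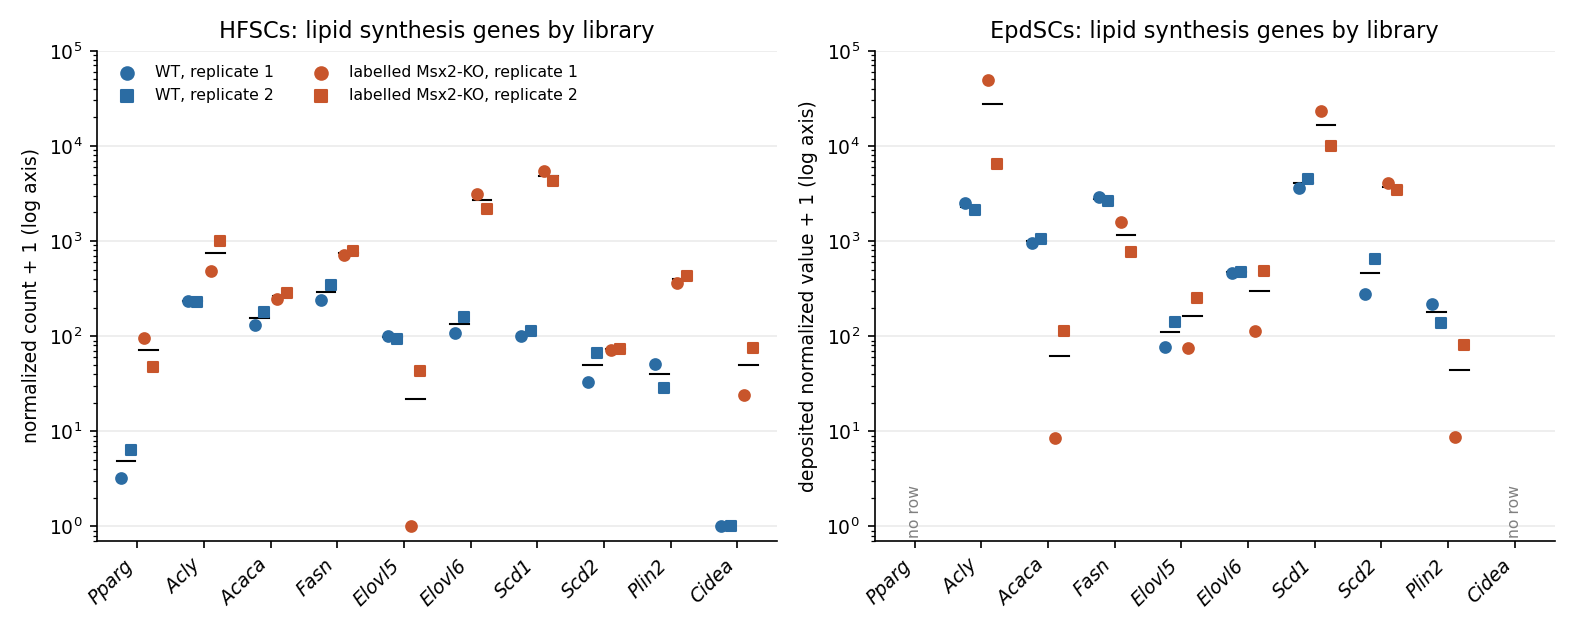
Levels of the 10 genes in every library, HFSCs left (TMM-normalized counts plus 1) and EpdSCs right (deposited normalized values plus 1), on log axes, with WT in blue, libraries labelled Msx2-KO in orange, circles for replicate 1, squares for replicate 2 and black bars for group means. In HFSCs Scd1 lies at 98.9 and 111 in WT and at 5476 and 4263 in Msx2-KO, and in EpdSCs Acaca lies at 956 and 1048 in WT and at 7.48 and 113 in Msx2-KO.

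Pparg, the regulator, had 3 estimated counts in each WT HFSC library and 154 and 39 in those labelled Msx2-KO. The ratio of pooled counts after scaling was 24.5, with an exact 95% interval of 11.1 to 67.6 that covers counting error only. Pparg (chr6:115360951-115490399, plus strand) overlaps the antisense gene Gm44079, which was in neither table. WT HFSCs were thus at the edge of detection, and the level in Msx2-KO remained low, at 94.1 and 46.4 normalized counts.

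Acly, ATP citrate lyase, which makes the acetyl-CoA, had normalized counts of 235 and 229 in WT HFSCs against 489 and 1003 in Msx2-KO HFSCs. The fitted log2 change came to 1.68 ± 0.43 SE. Both Msx2-KO libraries were above WT, but they differed from each other by more than the smaller of them lay above WT, and leaving out Msx2-KO replicate 2 gave 1.07. With library totals as the scale, not TMM factors, Acly was at 0.78. Acaca, acetyl-CoA carboxylase, which makes malonyl-CoA, had 130 and 177 in WT against 242 and 281 in Msx2-KO (log2 fold change 0.76 ± 0.35 SE). With library totals Acaca was at -0.04 and the median of all genes moved from -0.14 to -1.002. Fasn, fatty acid synthase, which joins the units into palmitate, had 237 and 346 in WT against 708 and 792 in Msx2-KO (log2 fold change 1.36 ± 0.30 SE). Its groups stood apart by more than either pair of replicates differed on this scale, and library totals lowered the log2 fold change to 0.58.

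Acaca shares sequence with another annotated gene. Of the 50-base windows of its longest transcript, 52.6% are also in Gm5182, against 0 to 4.89% of windows shared with any gene in the other 9 members. Gm5182 had 122.3 and 106 normalized counts in WT HFSCs and 360.9 and 317.8 in Msx2-KO. Adding it to Acaca gave 252.4 and 282.9 in WT against 602.5 and 599 in Msx2-KO. How the reads were split between the pair is uncertain, but the groups of the sum did not overlap either.

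The elongases went separate ways in HFSCs. Elovl6, which lengthens palmitate to stearate, had 108 and 158 normalized counts in WT against 3145 and 2190 in Msx2-KO (log2 fold change 4.33 ± 0.38 SE). Elovl5, which lengthens polyunsaturated chains, had 100 and 92.5 in WT against 0 and 41.7 in Msx2-KO. A count of 0 in Msx2-KO replicate 1 allows up to 3 counts, or 1.83 on the normalized scale. Its log2 fold change was -2.22 with a standard error of 2.22, and the value ran from -9.83 to -1.24 as libraries were left out, so the lower level is not separated from the replicate spread. Elovl6 (chr3:129532355-129638495, plus strand) overlaps the antisense gene Gm35986, which had 158 counts in Msx2-KO replicate 1, where Elovl6 had 5146, and 0 in the other HFSC libraries. The use of strand in counting is not given in the sources used here.

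Scd1 and Scd2, the stearoyl-CoA desaturases that place a double bond in stearate and palmitate, lie 87590 bases apart on chromosome 19 (chr19:44394455-44407879, minus strand, and chr19:44293674-44306864, plus strand, with Scd4 between them). In WT HFSCs Scd1 had 98.9 and 111 normalized counts and in Msx2-KO 5476 and 4263. The mean was 104.7 ± 8.26 (SD, n = 2) for WT, against 4869 ± 858 (SD, n = 2) in Msx2-KO, a ratio of means of 46.5. Its log2 fold change of 5.54 had a standard error of 0.32, the widest difference among the 9 members with counts in both groups. Scd2 had 32.2 and 65.3 in WT against 70.9 and 72.6 in Msx2-KO. Its log2 fold change of 0.56 was within its standard error of 0.84 and turned to -0.15 with library totals, and it was 0.11 without WT replicate 1 and 1.06 without WT replicate 2. The pair share few windows with other genes, 4.66% of Scd1 and 4.01% of Scd2, so the counts of each come mostly from its own sequence. Per kilobase of exon, the ratio of the Scd1 level to the Scd2 level was 3.43 and 1.89 in WT against 86.3 and 65.6 in Msx2-KO. Scd3 and Scd4 of the same cluster had at most 12 counts in WT and 0 in Msx2-KO HFSCs.

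Of the droplet proteins, Plin2 coats lipid droplets in many cell types and CIDEA fuses droplets in brown fat and sebocytes. Plin2 had 50.2 and 27.2 normalized counts in WT HFSCs and 364 and 432 in Msx2-KO (log2 fold change 3.34 ± 0.47 SE). Cidea had 0 counts in both WT libraries and 38 and 63 in those labelled Msx2-KO, at least 12.8-fold higher when each WT library is set to a floor of 3 counts. Neither gene overlapped between the groups. Cidea overlaps B430212C06Rik on the opposite strand.

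**Figure D2:**
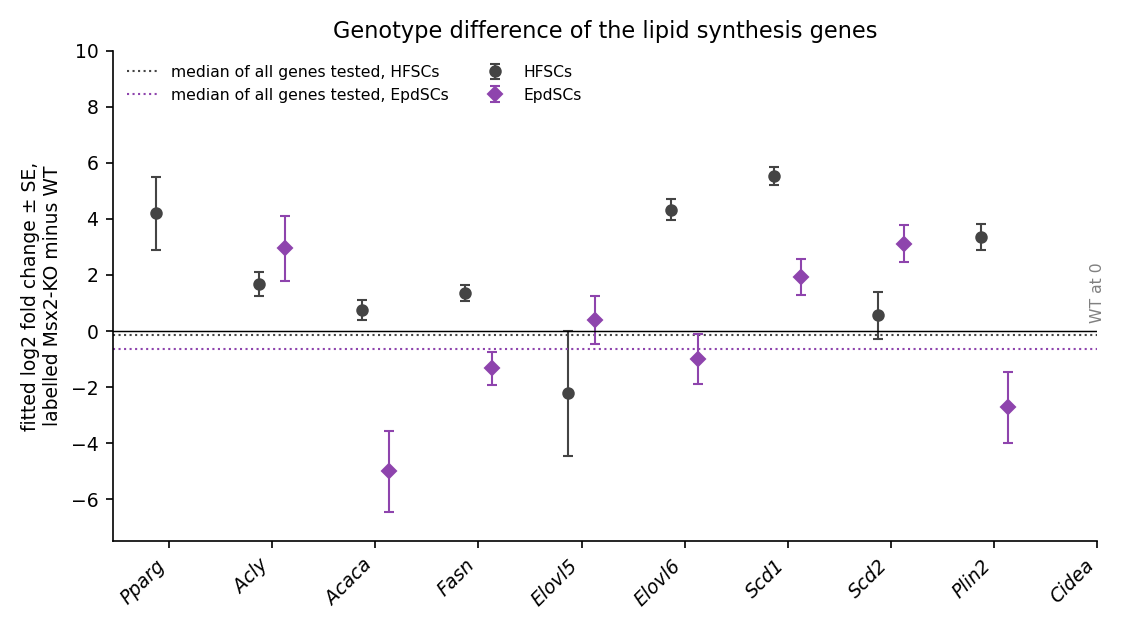
Fitted log2 fold change (Msx2-KO minus WT) with its standard error for each gene, HFSCs as black circles (edgeR) and EpdSCs as purple diamonds (limma on log2(value + 1)), with dotted lines at the medians of all genes tested, -0.14 and -0.64. Scd1, Scd2 and Acly are positive in both cell types, Acaca, Fasn and Plin2 lie on opposite sides of 0, though with library totals the HFSC values of Acaca and Scd2 were -0.04 and -0.15, and Cidea is left without a point because WT HFSCs had 0 counts.

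Of the summed level in WT HFSCs, Scd1 made up 9.94% and 9.13% and Fasn 23.9% and 28.6%. In the libraries labelled Msx2-KO, Scd1 made up 51.6% and 46.4%, Elovl6 29.6% and 23.8% and Fasn 6.67% and 8.61%. The genes were therefore not higher in proportion. Per kilobase of exon, the level of Scd1 over that of Fasn was 0.932 and 0.714 in WT against 17.3 and 12.0 in Msx2-KO.

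In EpdSCs the same genes lay on both sides of WT. Of 8 genes, Scd1, Scd2 and Acly were higher in both libraries labelled Msx2-KO, Fasn, Acaca and Plin2 were lower in both, and Elovl5 and Elovl6 overlapped. Over all 16231 genes, 27.8% were higher and 44.5% lower without overlap. The median log2 fold change was -0.31 over the 8 genes and -0.64 over all genes. Without Msx2-KO replicate 1 the median over the 8 genes was 0.66. The values are the authors' normalized signal, and log2 fold changes were fitted on log2(value + 1), which understates the change of low genes.

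Acly had 2505 and 2093 in WT EpdSCs against 48907 and 6473 in Msx2-KO EpdSCs. The Msx2-KO libraries differed 7.56-fold from each other, and the fitted log2 change came to 2.96 ± 1.16 SE, with 1.499 without replicate 1 and 4.42 without replicate 2. Acaca had 956 and 1048 in WT against 7.48 and 113 in Msx2-KO (log2 fold change -5.01 ± 1.44 SE, and -3.13 and -6.88 without Msx2-KO replicates 1 and 2). This put the maker of malonyl-CoA at the low end of detection in replicate 1. Gm5182 lay on the same side of WT, at 628.8 and 673 in WT against 1.434 and 9.214 in Msx2-KO, so the sum of the pair was 1585 and 1721 against 8.914 and 122.7. Fasn had 2926 and 2632 in WT against 1571 and 768 in Msx2-KO (log2 fold change -1.34 ± 0.59 SE, and -0.82 without Msx2-KO replicate 2). Acly thus lay on the opposite side of WT from Acaca and Fasn. Acly over Fasn, as levels per kilobase, was 1.78 and 1.65 in WT against 64.5 and 17.5 in Msx2-KO.

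Scd1 had 3585 and 4465 in WT EpdSCs against 23465 and 9990 in Msx2-KO (log2 fold change 1.94 ± 0.65 SE). Scd2 had 277 and 653 in WT against 4039 and 3406 in Msx2-KO (log2 fold change 3.12 ± 0.65 SE), and was the member with the least spread between the Msx2-KO libraries, at 1.19-fold. In HFSCs the wider difference of the pair was that of Scd1, and in EpdSCs that of Scd2, though the 2 tables were scaled apart and the difference between cell types was not tested. Scd1 over Scd2 per kilobase was 14.4 and 7.63 in WT EpdSCs against 6.49 and 3.28 in Msx2-KO. The ratio thus fell on the other side of WT than in HFSCs.

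Elovl6 had 459 and 476 in WT EpdSCs against 112 and 483 in Msx2-KO. The fitted log2 change came to -1.002 ± 0.89 SE and became 0.05 without Msx2-KO replicate 1 and -2.05 without replicate 2, so a single library sets its sign. Elovl5 had 75.8 and 141 in WT against 73.9 and 250 in Msx2-KO, with a log2 fold change of 0.39 ± 0.84 SE that was 1.26 and -0.48 when Msx2-KO replicates 1 and 2 were left out in turn, -0.05 without WT replicate 1 and -0.14 when scaled by totals without mitochondrial and ribosomal RNA. Neither elongase differed beyond its replicate spread. Plin2 had 218.8 and 135.6 in WT against 7.64 and 78.9 in Msx2-KO (log2 fold change -2.72 ± 1.27 SE). Plin2 was at -1.12 without Msx2-KO replicate 1 and at -4.33 without replicate 2.

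The spread between Msx2-KO replicates was wide in EpdSCs for genes in general. The absolute log2 ratio of the 2 replicates had a median of 1.23 over 11515 genes with a mean of at least 50 and of 1.92 over the 8 members, with the widest, 3.75, for Acaca. Between WT EpdSC replicates the medians were 0.209 and 0.288. In HFSCs the median between Msx2-KO replicates was 0.304 over 8 members, with the widest, 5.42, for Elovl5, and 0.91 over 8229 genes. Acly, at 489 and 1003 normalized counts, was also wider apart than that median of genes in general. Between WT HFSC replicates the medians were 0.492 over the 8 members and 0.269 over the 8229 genes. Pparg and Cidea fell below the mean of 50 and are not among the 8. Their ratios of Msx2-KO replicate 1 to replicate 2 were 2.03 and 0.31. The members were chosen with these values known, so nothing is read from their spread.

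To set the 4 groups on 1 scale, genes were ranked within each library by level per kilobase among 11840 protein-coding genes of both tables, with rank 1 the highest. Scd1 ranked 48 and 54 in HFSCs labelled Msx2-KO, 211 and 225 in Msx2-KO EpdSCs, 397 and 285 in WT EpdSCs and 5105 and 4722 in WT HFSCs. No neighbours in that order overlapped, although Msx2-KO EpdSCs and WT EpdSCs were close. Elovl6 ranked 101 and 150 in Msx2-KO HFSCs, while its WT HFSC ranks of 5916 and 4398 overlapped the WT EpdSC ranks of 5856 and 5741 and the Msx2-KO EpdSC ranks of 7653 and 5171. Plin2 ranked 892 and 617 in Msx2-KO HFSCs and between 6376 and 9472 in the other 6 libraries, whose groups overlapped except that both Msx2-KO EpdSC libraries did not reach the WT EpdSC ranks of 6376 and 7969. Acly ranked 106 and 413 in Msx2-KO EpdSCs and 1065 and 322 in Msx2-KO HFSCs, which overlapped, ahead of WT EpdSCs at 720 and 860 in 3 of those 4 libraries and of WT HFSCs at 2127 and 2370 in all. Fasn ranked 1758 and 1284 in Msx2-KO HFSCs and 1568 and 1749 in WT EpdSCs, which overlapped, ahead of WT HFSCs at 4805 and 3416 and Msx2-KO EpdSCs at 3966 and 5392, which also overlapped.

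**Figure D3:**
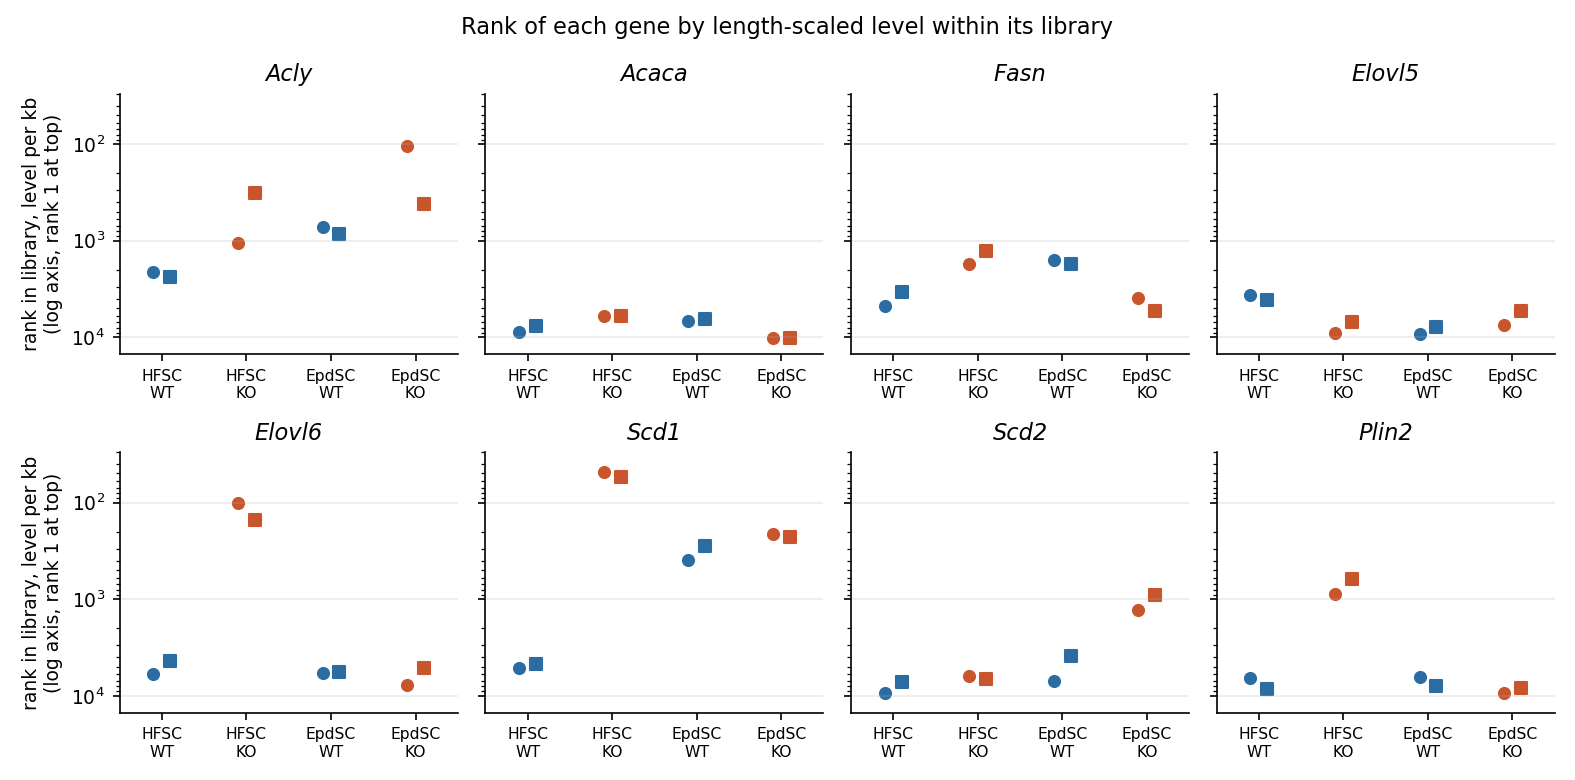
Rank of each of 8 genes within its library by level per kilobase of exon (log axis, rank 1 at the top, 11840 genes) in the 4 groups, WT in blue and libraries labelled Msx2-KO in orange, circles for replicate 1 and squares for replicate 2. Scd1 and Elovl6 reach ranks of 48 to 150 in Msx2-KO HFSCs, and Acaca lies lowest in Msx2-KO EpdSCs, at 10181 and 10068.

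Beyond these 10 genes, 79 other genes of lipid metabolism in 5 lists were followed, of which 58 passed the filter on low counts in HFSCs. With edgeR's quasi-likelihood test none was called at an adjusted p under 0.05 and a fold over 2, a rule that called 0% of all 14422 genes, while 20 had an unadjusted p under 0.05, 18 of them higher in Msx2-KO and 2 lower. Over all genes 5.3% were higher at that unadjusted p and 12.8% lower, 18.1% in all. The smallest adjusted p from edgeR was 0.143. DESeq2 called 12 of the 58 higher and 0 lower, against 2.29% of all genes called higher and 2.5% lower. Of the 58 genes, 49 had a positive log2 fold change and 9 a negative one, with a median of 1.36 against -0.14 over all genes. With library totals 37 were positive and 21 negative, with a median of 0.53 against -1.002 over all genes. Without the filter on low counts, 51 of 71 genes were positive and 20 negative, with a median of 1.14 against -0.70 over all genes. On the TMM scale every list had a positive median, from 1.07 for glyceride and wax ester synthesis to 1.66 for elongation and desaturation, and setting the genes with a group at 0 (Mlxipl and Ppargc1a) to their bound left the medians as they were.

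Fabp5, a fatty acid carrier of epidermis and sebocytes, lay farthest from WT in HFSCs among those with a mean of at least 50, with normalized counts of 11.7 and 19.9 in WT against 2260 and 1531 in Msx2-KO (log2 fold change 6.94 ± 0.47 SE, adjusted p = 0.143 from edgeR). Soat1, which esterifies cholesterol, had 21.0 and 14.5 in WT against 595 and 395 in Msx2-KO. Far2, which reduces fatty acids to the alcohols of wax esters, had 12.6 and 22.9 in WT against 643 and 269 in Msx2-KO. For both genes DESeq2 gave a call, with adjusted p of 7.53e-10 for Soat1 and 5.01e-07 for Far2, and edgeR an adjusted p of 0.143. On the lower side Far1, the broadly expressed reductase, had 362 and 410 in WT against 0 and 175 in Msx2-KO, a log2 fold change of -2.16 with a standard error of 2.09. Degs1, a ceramide desaturase (-0.76), and Lpin2, a phosphatidate phosphatase (-0.59), were the next of the lower genes with a mean of at least 50 and no overlap. Below that mean, and named here after their values were seen, Ppargc1a, a coactivator of PPARs, had 37.4 and 38.1 in WT HFSCs and Mlxipl, the carbohydrate-responsive regulator ChREBP, 20.5 and 21.8, and both had 0 in each library labelled Msx2-KO. These were the 2 lower genes with an unadjusted p under 0.05, and both had an adjusted p of 0.143 from edgeR and 0.0327 from limma-trend.

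In EpdSCs 57 of the 79 genes had a row. With limma 1 was called, Plin4, a droplet coat protein, with values of 32.5 and 14.2 in WT and listed at 0 in both libraries labelled Msx2-KO (adjusted p = 0.036 from limma). With a pseudocount of 10 Plin4 was no longer called. Over all genes limma called 1.57% higher and 7.78% lower. The log2 fold change was positive in 34 and negative in 23 of the 57, with a median of 0.14 against -0.64 over all genes. The majority turned with the scaling, to 28 positive and 29 negative with library totals (median -0.13 against -0.88) and to 24 and 33 with totals without mitochondrial and ribosomal RNA (median -0.36 against -1.14). The largest differences without overlap were higher in Msx2-KO for Fabp5, at 1279 and 697 in WT against 114773 and 4821 in Msx2-KO, for Agpat2, which makes phosphatidate, at 142 and 153 against 1296 and 673, and for Insig1, a sterol sensor, at 68.2 and 37.9 against 229 and 409. They were lower for Nr1h2, the receptor LXRβ, at 965 and 882 against 15.3 and 122, for Ppara, the receptor of fatty acid oxidation, at 250 and 404 against 12.7 and 67.4, and for Acsl5, an acyl-CoA synthetase, at 1937 and 1585 against 44.6 and 700. None of these 6 passed limma's adjusted threshold, with adjusted p from 0.0708 for Agpat2 to 0.202 for Acsl5.

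**Figure D4:**
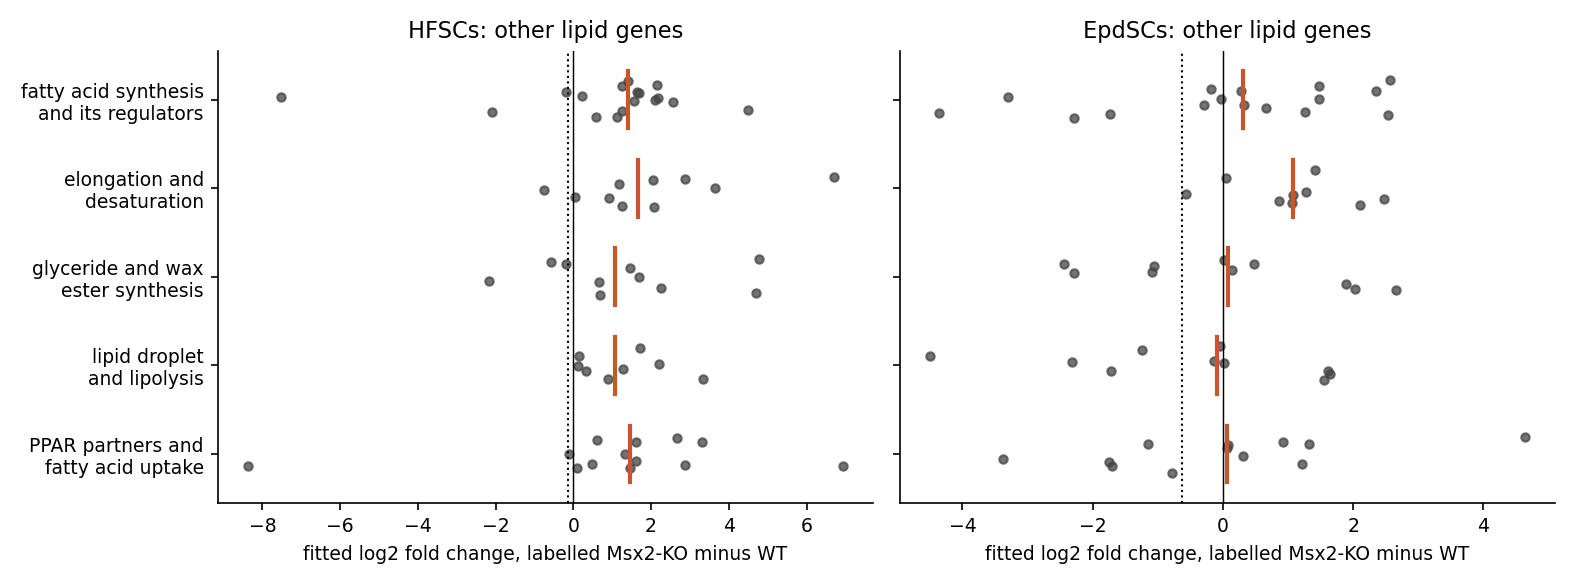
Fitted log2 fold changes (Msx2-KO minus WT) of the other lipid genes by list, HFSCs left (58 genes) and EpdSCs right (57 genes), each point a gene, with orange bars at the list medians and dotted lines at the medians of all genes tested (-0.14 and -0.64). All 5 HFSC medians lie between 1.07 and 1.66, and on the deposited scale the EpdSC medians run from -0.09 for lipid droplet and lipolysis to 1.07 for elongation and desaturation.

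Most markers of the sebaceous gland with a row were higher beside the lipid genes in HFSCs. Of 11 markers, 9 had a row in HFSCs and 8 passed the filter, and these 8 were higher in both libraries labelled Msx2-KO without overlap, as were 17.5% of all genes tested. Elovl3 and Fa2h passed the filter only through their Msx2-KO counts. Scd3, the marker with a row that did not pass, was lower in both Msx2-KO libraries. Nothing is therefore read from the share of markers that were higher. The lists share genes, since Elovl3, Far2 and Scd3 are also in the lists of lipid genes. Summed normalized counts were 201 and 146 in WT against 5501 and 4013 in Msx2-KO. Krt79, a keratin of the gland's duct and the infundibulum, had 89.9 and 30.8 in WT against 3275 and 2981 in Msx2-KO. It made up most of the sum in each Msx2-KO library. Mgst1 had 39.7 and 32.6 against 665 and 275, and Fa2h, which hydroxylates fatty acids, had 4 and 0 counts against 798 and 208. Elovl3 had 1 and 0 counts in WT against 49 and 77 in Msx2-KO, and Mc5r, the melanocortin receptor of sebocytes, 9 and 4 against 254 and 30. All 5 markers named so far lay higher in each Msx2-KO library than in WT. Gata6 (22.5 and 19.9 against 131 and 70.3) and Prdm1 (22.5 and 29.0 against 112 and 42.9) were higher by less. Scd3 had 5 and 2.044 counts in WT and 0 in Msx2-KO. Awat2 and Dgat2l6, enzymes of wax ester and glyceride synthesis in mature sebocytes, had no row in either table.

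Of 8 adipocyte markers, 4 had a row in HFSCs, and these 4 were at or near 0 in most HFSC libraries. Adipoq, Retn, Cfd and Ucp1 had no row in HFSCs, Fabp4 had 52 and 1 counts in WT and 0 in both libraries labelled Msx2-KO, and Lep, Car3 and Plin1 had at most 6 counts in any library. None of the 8 had a row in EpdSCs. Suprabasal epidermis markers (Krt1, Krt10, Lor, Flg, Ivl, Krtdap) were also higher in Msx2-KO HFSCs, at summed values of 332 and 167 in WT against 3866 and 15105 in Msx2-KO. Krt1 and Krt10 made up most of each sum. Lor alone overlapped, at 0 in both WT libraries against 0 and 123 in Msx2-KO. The order of the Msx2-KO libraries differed, since the sebaceous sum was higher in replicate 1 and the suprabasal sum in replicate 2. In bulk samples more cells of a type and more RNA per cell cannot be told apart, and the part of sebaceous or suprabasal cells in the lipid gene levels was not tested.

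In EpdSCs 4 of the 11 sebaceous markers had a row. Mgst1 was at 45.5 and 47.4 in WT against 354 and 183 in Msx2-KO, and Gata6 at 68.2 and 180 against 279 and 310. Krt79 overlapped, at 1954 and 2646 against 4024 and 747, as did Far2, at 31.5 and 25.5 against 0 and 28.3. Mc5r, Elovl3 and Fa2h had no row. The sums were 2099 and 2899 in WT against 4657 and 1269 in Msx2-KO, which overlapped, and Krt79 made up most of each. The suprabasal sum was lower in Msx2-KO, at 41925 and 71567 against 263500 and 187018.

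**Figure D5:**
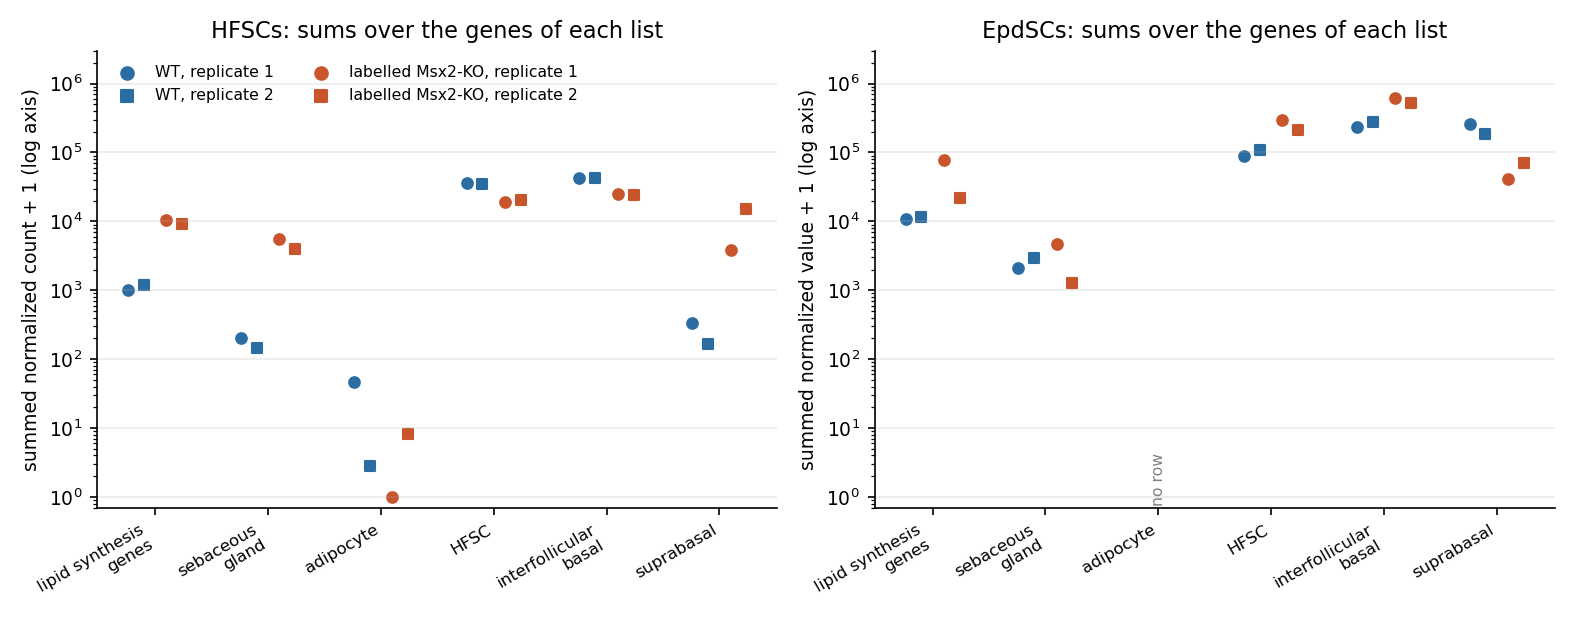
Summed levels of the 10 lipid synthesis genes and of marker lists in each library (log axes, plus 1), HFSCs left and EpdSCs right, WT in blue and libraries labelled Msx2-KO in orange, circles for replicate 1 and squares for replicate 2. In HFSCs the sums of the lipid genes, sebaceous markers and suprabasal markers are higher in Msx2-KO (9197 to 10611, 4013 to 5501 and 3866 to 15105) and that of adipocyte markers is at most 45.7 in any library.

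The genes whose pattern was most like the mean of the 8 members of both tables were Ppdpf (r = 0.99), 2310061I04Rik (0.987), 2310057M21Rik (0.971), Lrrc59 (0.961) and Hsd17b4 (0.952), by Pearson's correlation of log2 levels centred within each cell type over the 8 libraries, among 7757 genes with a mean of at least 50 in both tables. The points share libraries and their depth, and the 4 points of a cell type are 2 pairs of replicates. Hsd17b4, an enzyme of peroxisomal fatty acid oxidation, was at 116.1 and 128.8 in WT HFSCs, 207.8 and 369.1 in Msx2-KO HFSCs, 909.8 and 853.6 in WT EpdSCs against 596 and 1210 in Msx2-KO EpdSCs. Of the members, each of which is part of that mean, Elovl6 was nearest to it (r = 0.922) and Elovl5 farthest (r = -0.375).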

How the data were processed

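RNA of sorted HFSCs and EpdSCs was prepared by the authors with a stranded total RNA kit, aligned with STAR (2.7.3a in the submitters' processing notes) in Partek Flow to GRCm38/mm10 and assigned to GENCODE M25 genes. The authors deposited raw estimated counts of each gene for HFSCs, with reads that match several genes split into fractions. The EpdSC table was deposited by the authors as a normalized signal. Its normalization and its filter on low genes are not given in the sources used here, and division of each library by 1 factor was inferred from steps between its low values. The authors' own comparison tables (fold changes and p-values) were not used.

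HFSC counts were rounded and passed through filterByExpr, TMM scaling and the quasi-likelihood test of edgeR 4.0.16, which covered 14422 genes. For EpdSCs, limma 3.58.1 was run on log2(value + 1) of 16231 genes. HFSC standard errors were computed as the absolute log2 fold change divided by the square root of edgeR's F statistic. EpdSC standard errors are limma's moderated ones. Calls needed an adjusted p (Benjamini-Hochberg) below 0.05 and a fold over 2, the thresholds of the study's methods. With 2 libraries a group, an exact permutation test could not pass the threshold. The members, lists and tests were chosen with earlier results of these data known. Named beside the members were, of the other lipid genes, those called and the 3 largest changes per cell type and direction with a mean of at least 50 and no overlap, the sebaceous and adipocyte markers, and the 5 genes most like the members. The sebaceous list is given without 1 marker, which is not reported here.

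Alternatives were DESeq2 1.42.0, limma-trend, RLE factors, library totals, other filters, pseudocounts of 0.1 and 10, an intensity trend, a replicate block and each library left out. Same-numbered libraries did not deviate together (r = -0.06 in HFSCs and -0.02 in EpdSCs). Gene positions are GENCODE M21 on GRCm38. Shared windows were counted on GENCODE M21 transcripts. R 4.3.3 and Python 3.11.15 with matplotlib 3.10.9 were used.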

Additional observations from a re-analysis of the deposited data

Results flagged for a closer look

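Fasn, Acaca and Plin2 drew attention because each Msx2-KO library was above each WT library in HFSCs and below each in EpdSCs. The EpdSC log2 fold changes were -1.34 for Fasn, -5.01 for Acaca and -2.72 for Plin2, against 1.36, 0.76 and 3.34 in HFSCs. Among 13151 genes tested in both tables, 7.98% had this pair of directions. The difference between the cell types was not tested, since the tables were scaled apart, and age differed with genotype in HFSCs only. The groups where these genes were higher, Msx2-KO HFSCs and WT EpdSCs, were also those whose library names run on from each other. What that series records, and its part in the difference, was not tested. Acaca shares 52.6% of its 50-base windows with Gm5182, which lay on the same side of WT as Acaca in each cell type, and the HFSC value of Acaca was -0.04 with library totals.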

How the results depend on the processing

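The median log2 fold change of the 10 genes in HFSCs (2.51) was 1.58 with library totals and 1.77 with at least 10 counts in every library, which left 7 of the genes, and 2.22 to 2.74 without each library. That in EpdSCs (-0.31) ran from -0.65 to 0.66 without each library. The number of HFSC genes called, 0 with edgeR and 2614 at an unadjusted p under 0.05, was 690 with DESeq2, 1407 with limma-trend, 51 with library totals, 2 with the minimum of 10 counts and 132 to 9272 without each library, where a lone sample is assumed to vary like the other group. Of the other lipid genes in HFSCs, 0 with edgeR became 12 with DESeq2, 6 with limma-trend, 1 with library totals, 1 with the minimum of 10 counts and 3 to 38 without each library. In EpdSCs the 1518 genes called ran from 0 to 10376 without each library, and were 0 without either WT library. The 1 other lipid gene called there became 4 with an intensity trend, ran from 0 to 32 without each library, and with a pseudocount of 10 gave way to 2 others, both higher. With the replicate block, 231 HFSC genes and 6 of the other lipid genes were called, although the numbers do not pair the samples. The causes were not tested. With 2 libraries a group and 11409 to 22447 genes detected in HFSCs, low members such as Pparg, Cidea and Scd2 rest on few counts.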

Other observations

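The other lipid genes also split between the cell types. Of 55 tested in both tables, 10 were higher in Msx2-KO in both without overlap (18.2%, against 5.67% of all 13151 genes), 9 were higher in HFSCs and lower in EpdSCs (16.4% against 7.98%), 4 were lower in HFSCs and higher in EpdSCs (7.27% against 8.57%) and 0 were lower in both (15.3% of all). The first group held Acsl1, Acsl4, Hsd17b12, Hacd3, Elovl4, Srebf2, Cebpa, Fabp5, Abhd5 and Acss2. The second held Srebf1, the transcription factor of fatty acid synthesis genes, named here after its values were seen, at normalized counts of 155 and 152 in WT HFSCs and 923 and 399 in Msx2-KO HFSCs, and at values of 1424 and 1805 in WT EpdSCs and 401 and 576 in Msx2-KO EpdSCs. Srebf2, the factor of cholesterol synthesis genes, was at 2077 and 2005 in WT EpdSCs and 4864 and 6569 in Msx2-KO EpdSCs. By definition, genes higher in HFSCs and lower in EpdSCs are higher in Msx2-KO HFSCs and WT EpdSCs. These are the groups whose library names run on from each other, and the part of that series was not tested. The difference between cell types was not tested.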
